A study of Drosophila melanogaster with 46 samples.

Results

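The muscle actins Act88F, Act79B and Act87E of Drosophila melanogaster were followed across 15 comparisons of adult tissues, sexes and mutant stocks on 2-colour microarrays. The members were all spots whose gene symbol in the platform's annotation begins with Act followed by a digit. That rule took 6 of 31464 spots, which are 3 duplicated elements (1 clone or product spotted in duplicate) of 15732 elements, 1 for each of 3 genes among 10851 genes. Spots under the symbols of the cytoplasmic actins Act5C and Act42A, and of the muscle actin Act57B, numbered 0, so a contrast of muscle against cytoplasmic isoforms is not analysed here. All 6 spots gave a value on all 46 arrays, so no actin was lost to a filter. Act88F and Act87E lie on chromosome arm 3R and Act79B lies on arm 3L.

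Actin monomers polymerise into filaments. In muscle those filaments form the thin filaments on which myosin pulls, while cytoplasmic actins build the cell cortex, cables and motile structures of every cell. Drosophila carries several nearly identical actin genes that are divided by tissue. Act88F is the actin of the indirect flight muscles of the thorax, which power the wings. Act79B is a muscle actin of tubular muscles in the thorax and legs, and Act87E is a muscle actin of the body wall of larvae and adults. Because the coding sequences are so alike, a spotted fragment of one actin can capture RNA of another. The share of each signal that came from another actin was not tested.

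Each array compared 2 RNA pools from adult flies kept at 25 °C and aged 3 to 5 days after eclosion. The wild-type side was the y[1]w[67c] stock, as whole females, whole males, dissected ovaries, dissected testes and carcasses, which are flies with the gonads removed. The labels of the first channel call the whole y w flies of the 2 mutant comparisons y[1]w[1] in place of y[1]w[67c]. Chromosomally female flies transformed towards maleness were w[67c]/w[67c];tra2[B]/TRIX, called XX tra2, and their XY tra2 siblings were w[67c]/BsY;tra2[B]/TRIX. The gene transformer 2 directs female splicing in the sex determination pathway. XX dsx flies were +/+;dsx[M+R45]/dsx[swe], and doublesex encodes the transcription factors at the end of that pathway. Flies without a germline were tud[1] bw[1]sp[1], born to mothers that carried the same alleles, since maternal tudor is needed to form germ cells. The mutant stocks differed from the y w stock in other alleles too, so stock and mutation cannot be told apart. The labels do not give the number of flies in a pool, nor whether the arrays of a comparison came from separate collections, so the p-values reflect only differences between arrays, which may be technical.

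Of the 46 arrays, 44 belonged to the 15 comparisons and 2 compared mixed-sex flies with themselves. There were 7 comparisons with 4 arrays and 8 with 2. The number of arrays limits precision. Between 7994 and 14881 elements had a value on an array. Marker genes of the gonads followed the labels. In ovary over testis, 4 of 4 testis markers were called lower (31.8% of all elements) and 4 of 4 ovary markers higher (34.9%). The carcasses were not free of this difference. The 4 testis markers had a median log2 ratio of -1.10 and the 4 ovary markers a median of 1.34 in female over male carcass. What part residual gonad RNA had in any carcass ratio was not tested. Genes of other tissues also read higher in testis over male carcass, where 26% of elements were called higher. There 3 of 3 accessory gland genes (median 1.19) and 2 of 3 yolk genes (list median 0.997) were called higher. In ovary over testis, 3 of 3 accessory gland genes were called lower (median -3.32). What part tissue other than testis had in any testis ratio was not tested. On ovary arrays 7b and 8b the values of the first subarray, 1 of 2 on the platform, ran opposite to their partner arrays and were left out. The actin elements lie on the other subarray, where arrays 7a and 7b correlated at 0.92 over elements.

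Every actin value below is a log2 ratio of the first-named RNA over the second, not a level of RNA, with arrays turned by their titles. A fitted ratio is the coefficient of a limma model over all arrays with a term for dye, given with its standard error (SE). An actin was called when its Benjamini-Hochberg adjusted p over all elements tested in that comparison was below 0.05. Out of 45 tests, 27 were called, 9 higher and 18 lower. Act88F was called in 11 of 15 comparisons, Act79B in 10 and Act87E in 6. Over all elements, 63683 calls were made in the 15 comparisons. By comparison, the share of elements called higher ran from 0.321% to 34.9%, and the share called lower from 0.886% to 31.8%. The share called either way ran from 1.21% in tudor female over tudor male to 66.7% in ovary over testis. A share pooled over the 15 comparisons was not computed, so 27 of 45 is not read against one. The actin counts are therefore given as description only. In fly tissues compared as bulk RNA, a smaller share of muscle cells and less actin RNA per muscle cell cannot be told apart.

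**Figure D1:**
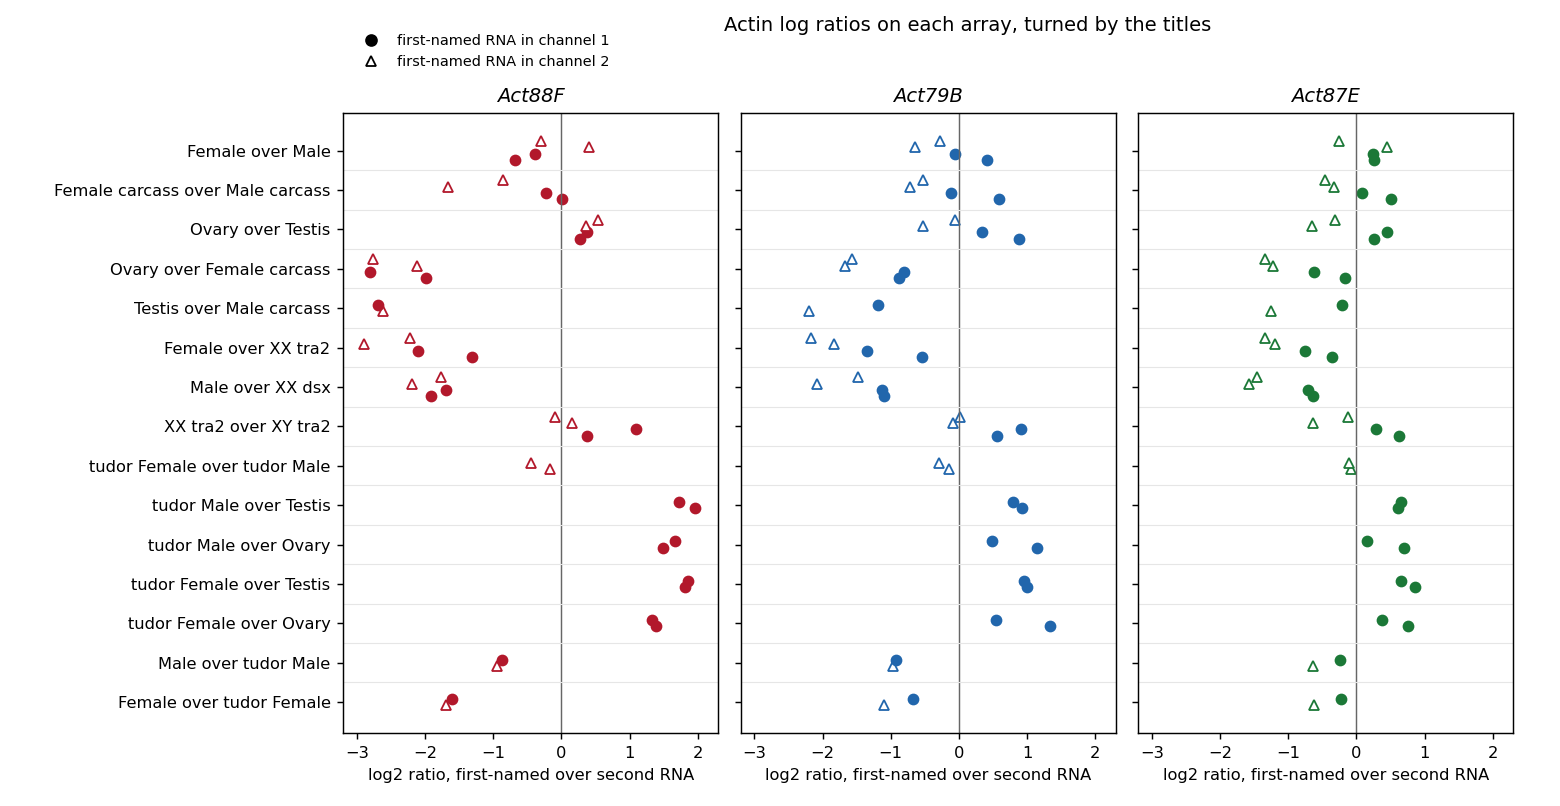
Log2 ratios of the 3 actins on each of the 44 arrays, by comparison. Each point is 1 array, and filled circles and open triangles separate the channel that held the first-named RNA. For Act79B and Act87E the triangles lie left of the circles in most comparisons that hold both.

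The gonads held much less muscle actin RNA, relative to other RNA, than the carcass they were taken from. All 3 actins were lower in both sexes, and Act88F was lowest on every one of those arrays. In ovary over female carcass, Act88F read -1.99, -2.81, -2.11 and -2.76 on arrays 7a, 7b, 8a and 8b. The fitted ratio was -2.42 ± 0.18 (SE, n = 4 arrays), a 5.35-fold difference, with a limma adjusted p of 2.73e-13. All 4 arrays lay far below 0, and 7b and 8b were lower than 7a and 8a.

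Act79B, the tubular muscle actin, read -0.88 and -0.80 with ovary in channel 1 and -1.67 and -1.57 with the channels swapped. Its fitted ratio of -1.23 ± 0.13 was a 2.35-fold difference (limma adjusted p = 4.96e-10). Act87E, the body wall muscle actin, read -0.17, -0.61, -1.22 and -1.34 on the same arrays. Its fitted ratio was -0.84 ± 0.11, or 1.78-fold (limma adjusted p = 5.76e-08). All 3 actins were thus called lower in ovary, where 26.6% of the 13127 elements tested were called lower. For Act79B and Act87E the orientations did not overlap, and both orientations stayed below 0.

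Testis over male carcass rested on 2 arrays, 1 of each orientation. Act88F read -2.69 and -2.62, which gave a fitted ratio of -2.66 ± 0.26 and a 6.3-fold difference (limma adjusted p = 4.23e-10). These arrays, of opposite orientation, gave nearly the same value.

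Act79B read -1.19 and -2.205 on these arrays, fitted at -1.70 ± 0.19 (limma adjusted p = 3e-09). Act87E read -0.21 and -1.25, fitted at -0.73 ± 0.16 (limma adjusted p = 0.000225). The 3 actins were called lower in testis, against 26.9% of elements called lower. Without array 10 the call for Act87E was lost, at -0.54 with an adjusted p of 0.0579. When all arrays were scaled to the same spread, the ratios shrank to -1.70 for Act88F and -1.11 for Act79B, and both stayed called.

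The gap between gonad and carcass was tested for a difference between the sexes. Act79B was 0.46 ± 0.23 (SE) less negative in females than in males, with a limma adjusted p of 0.113 over 12140 elements. The same difference was 0.23 ± 0.32 for Act88F and -0.11 ± 0.19 for Act87E. None of the 3 was called and 1 of 3, Act79B, had an unadjusted p under 0.05, where 34.2% of elements were called either way. At this precision, a sex difference in the actin gap between gonad and carcass was not detectable.

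Flies without a germline, whole tudor males and females, were compared with the same gonads. In these 4 comparisons Act88F was higher in the tudor flies each time, by between 2.34-fold and 3.27-fold. Act88F read 1.96 and 1.72 in tudor male over testis, fitted at 1.71 ± 0.26 (limma adjusted p = 2.97e-06). It read 1.81 and 1.855 in tudor female over testis, fitted at 1.70 ± 0.26 (limma adjusted p = 2.38e-06). The male and female flies gave Act88F ratios over testis that lay within 1 SE of each other.

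Over ovary, Act88F read 1.485 and 1.66 in tudor males, fitted at 1.44 ± 0.26 (limma adjusted p = 4.91e-05). In tudor females it read 1.395 and 1.325, fitted at 1.23 ± 0.26 (limma adjusted p = 0.000473). All 8 arrays of these comparisons were above 1. Leaving out an array of a 2-array comparison leaves a single array, whose spread is then assumed to be that of the other comparisons. On that footing the Act88F call was kept without either array in each of the 4 comparisons.

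These 4 comparisons held the tudor RNA in channel 1 on every array, so the dye term could not be separated from the ratio within them. The fitted ratio subtracts a dye effect estimated on the other arrays, which was small for Act88F and large for the other 2 actins. Act79B read 0.93 and 0.795 in tudor male over testis and 1.005 and 0.96 in tudor female over testis. The fitted ratios were 0.49 ± 0.18 (limma adjusted p = 0.0384) and 0.61 ± 0.18 (limma adjusted p = 0.00805). With no dye term the same ratios were 0.86 and 0.98, more than 1.5 times as large.

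Over ovary, Act79B read 1.14 and 0.485 in tudor males, fitted at 0.44 ± 0.18 and not called (limma adjusted p = 0.067). After scaling, that ratio was 0.50 and was called (limma adjusted p = 0.0418). In tudor females Act79B read 1.335 and 0.545, fitted at 0.57 ± 0.18 (limma adjusted p = 0.0198). Leaving out either testis array ended the Act79B call in tudor males (0.42 without 18a, 0.56 without 18b) and in tudor females (0.59 without 20a, 0.63 without 20b). Over ovary, the tudor female ratio fell to 0.17 without array 21a and rose to 0.96 without 21b, and the tudor male ratio was 0.11 without 19a and 0.77 without 19b. Each of these ratios, over testis and over ovary, is the value of a single array with its spread taken from the other comparisons. Whether a call is kept or lost there rests on that borrowed spread. The tudor female over ovary call was lost without 21a. The tudor male over testis call was also lost from second spots, at 0.39 (adjusted p = 0.162), and with arrays taken as independent (adjusted p = 0.0587). The tudor female over ovary call was lost on its own arrays (adjusted p = 0.0608).

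Act87E was above 0 on all 8 arrays, from 0.155 on array 19b to 0.865 on array 20a, yet only tudor female over testis was called. That ratio was fitted at 0.42 ± 0.16 (limma adjusted p = 0.0305), and the call was lost without 20a (0.32) or without 20b (0.53), from first spots (adjusted p = 0.0661) and after scaling (adjusted p = 0.111). The other Act87E ratios were 0.29, 0.091 and 0.23, each with an SE of 0.16. Their values with no dye term were 0.63, 0.43 and 0.565. Fitted on its own arrays, which allow no dye term, the tudor male over testis ratio of 0.63 was called (limma adjusted p = 0.0235).

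In all, 2 actins were called higher in tudor male over testis, against 15.4% of elements called higher. The count was 1 in tudor male over ovary (16.1% of elements), 3 in tudor female over testis (17.8%) and 2 in tudor female over ovary (12.7%).

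**Figure D2:**
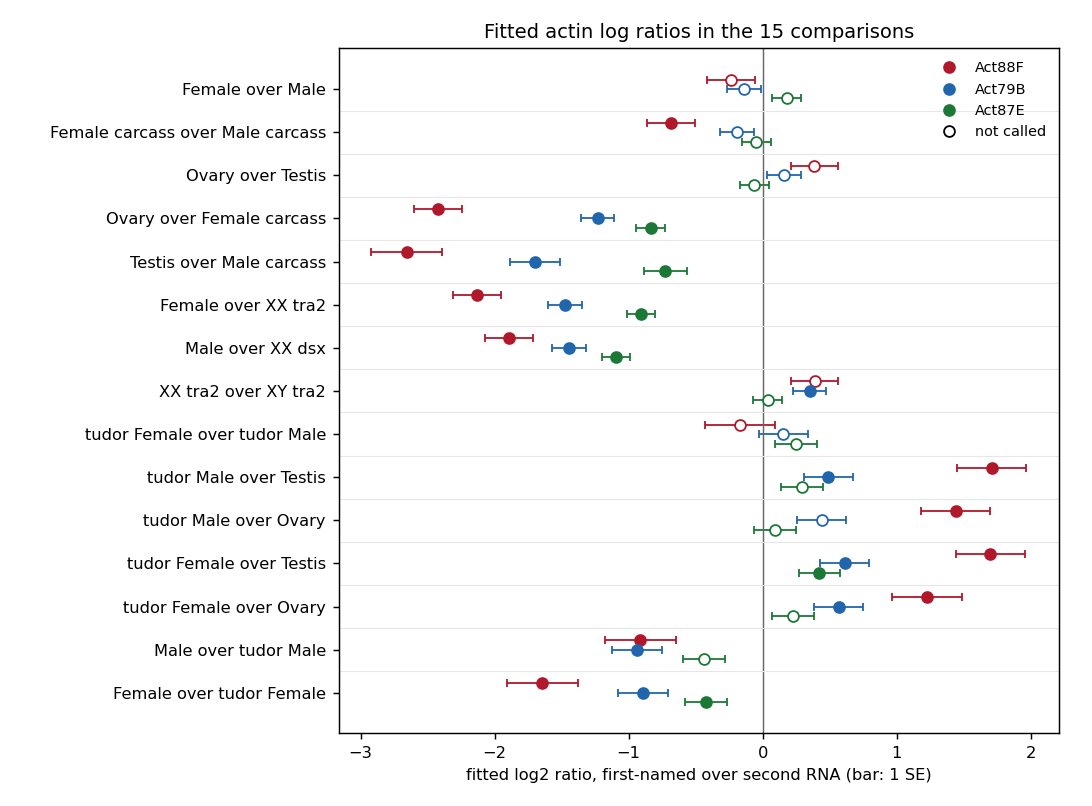
Fitted log2 ratios of the 3 actins in the 15 comparisons, with bars of 1 SE from the limma fit over all arrays. Filled points passed an adjusted p of 0.05 and open points did not; Act88F lies farthest from 0 in each of the gonad comparisons against carcass or tudor flies.

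Whole y w flies were also set against sex-transformed stocks. All 3 actins were lower in y w females than in XX tra2 flies, which develop as sterile males. Act88F read -1.32, -2.10, -2.89 and -2.21 on arrays 11a, 11b, 12a and 12b, fitted at -2.13 ± 0.18 or 4.38-fold (limma adjusted p = 6.09e-12). Act79B read -0.55, -1.34, -1.84 and -2.17, fitted at -1.47 ± 0.13 or 2.78-fold (limma adjusted p = 9.9e-12). Act87E read -0.36, -0.75, -1.19 and -1.34, fitted at -0.91 ± 0.11 or 1.88-fold (limma adjusted p = 9.93e-09). Every array was below 0 for every actin, and array 11a was the least negative for all 3.

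The count of 3 called lower stood against 28.4% of elements called lower in females over XX tra2. In that comparison 28.1% of elements were called higher. Among them were 4 of 4 ovary markers (median 2.73) and 3 of 3 yolk genes (median 3.28). The 3 photoreceptor genes (median -1.05) and the 3 accessory gland genes (median -3.24) were all called lower. The part of these cell types in the actin ratios was not tested.

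Whole y w males also held less RNA of the 3 muscle actins than XX dsx flies. Act88F read -1.92, -1.69, -2.20 and -1.76 on arrays 13a, 13b, 14a and 14b, fitted at -1.89 ± 0.18 or 3.71-fold (limma adjusted p = 2.51e-10). Act79B read -1.10, -1.13, -2.07 and -1.48, fitted at -1.45 ± 0.13 (limma adjusted p = 4.58e-11). Act87E read -0.63, -0.71, -1.57 and -1.46, fitted at -1.09 ± 0.11 or 2.13-fold (limma adjusted p = 5.38e-10). All 3 were called lower, against 11.6% of elements. This was the comparison with the most negative Act87E ratio, and 0.0792% of tested elements had a signed ratio at or below that of Act88F. The 4 testis markers were called higher in y w males (median 2.25), against 15.1% of elements called higher. The 3 yolk genes were called lower (median -1.14), while 0 of 3 photoreceptor genes were called. The part of these cell types was not tested.

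Among the siblings, XX tra2 over XY tra2 gave small ratios. Act88F read 0.38, 1.10, 0.15 and -0.088, fitted at 0.39 ± 0.18 and not called (limma adjusted p = 0.136). Act79B read 0.55, 0.91, -0.086 and 0.015, fitted at 0.35 ± 0.13 and called higher (limma adjusted p = 0.0452), against 5.18% of elements called higher. That call was also lost from first spots, at 0.28, and with no dye term (adjusted p = 0.356), on its own arrays, with arrays taken as independent, without centring, without arrays 7b and 8b or with them as deposited, and among elements measured on every array. Leaving out any 1 array ended it too: the ratio was 0.40 without 15a, 0.29 without 15b, 0.37 without 16a and 0.34 without 16b. Act87E read 0.63, 0.28, -0.64 and -0.13, fitted at 0.037 ± 0.11 (limma adjusted p = 0.876). The orientations of Act79B and Act87E did not overlap, with the higher values where XX tra2 was in channel 1. In the same comparison 4 of 4 testis markers were called lower (median -2.39), against 15.3% of elements. The 3 photoreceptor genes were called higher (median 1.89), against the 5.18% above. The part of these markers was not tested.

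In the y w stock, 2 of 3 muscle actins were called lower in males and 3 of 3 in females than in tudor flies of the same sex. In males, Act88F read -0.95 and -0.875, fitted at -0.91 ± 0.26 or 1.88-fold (limma adjusted p = 0.0245). Act79B read -0.96 and -0.92, fitted at -0.94 ± 0.19 or 1.92-fold (limma adjusted p = 0.000551). Act87E read -0.63 and -0.245, fitted at -0.44 ± 0.16 and not called (limma adjusted p = 0.102).

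The 2 actins called lower in males stood against 1.37% of elements called lower, the lowest such share among the comparisons with an actin called lower. Both Act88F arrays were needed for its call, which was lost at -1.01 without array 22 and at -0.81 without array 23. The Act79B call was lost without array 23, at -0.57. Scaling the arrays to the same spread raised the size of both, to -1.51 for Act88F and -1.55 for Act79B, and moved Act87E to -0.78, which was then called (limma adjusted p = 0.00114). With no dye term the Act79B call was lost (adjusted p = 0.103).

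Markers of other cell types moved in the same comparison. In y w males 4 of 4 testis markers were called higher (5.95% of all elements), with a median of 2.16. There 2 of 3 yolk genes were called lower (1.37% of all elements), with a median of -1.58. The 3 photoreceptor genes had a median of 0.0052 and none was called. The part of these cell types in the actin ratios was not tested.

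In females, Act88F read -1.69 and -1.60, fitted at -1.645 ± 0.26 or 3.13-fold (limma adjusted p = 1.97e-05). Act79B read -1.105 and -0.675, fitted at -0.89 ± 0.19 (limma adjusted p = 0.000441), and that call was lost without array 25, at -0.72. Act87E read -0.615 and -0.23, fitted at -0.42 ± 0.16 (limma adjusted p = 0.0407), and its call was lost without array 24 (-0.58) or 25 (-0.27). The Act87E call was also lost with no dye term (adjusted p = 0.327), from second spots (adjusted p = 0.0602) and with arrays 7b and 8b as deposited (adjusted p = 0.0631). All 3 were called lower in females, against 14.9% of elements. In the same comparison 4 of 4 ovary markers were called higher (median 1.63), against 15.5% of elements. Called lower were 3 of 3 photoreceptor genes (median -0.99) and 2 of 3 yolk genes (median -1.38). The part of these markers in the actin ratios was not tested.

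The y w over tudor ratio of Act88F differed by -0.73 ± 0.37, females minus males. That difference was not called (limma adjusted p = 0.199), where 11.9% of elements were called, and 0 of 3 actins had an unadjusted p under 0.05. For Act79B and Act87E the sexes differed by 0.05 ± 0.26 and 0.015 ± 0.22.

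Few actins were called in the direct comparisons of females with males. In whole flies, 0 of 3 actins were called, against 56.7% of 12989 elements called either way by limma, and none of the 3 had an unadjusted p under 0.05. Act88F read -0.68, -0.39, 0.41 and -0.29 on arrays 1a, 1b, 2a and 2b, fitted at -0.24 ± 0.18 with a 95% interval from -0.60 to 0.13 (limma adjusted p = 0.267). Array 2a alone was above 0, and without it the ratio was -0.52 and was called (limma adjusted p = 0.021).

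Act79B read 0.41, -0.055, -0.64 and -0.27, fitted at -0.14 ± 0.13 (limma adjusted p = 0.353). The duplicate spots of Act79B on array 1a differed by 1.06, the largest such gap for any actin. From the second spots alone the Act79B ratio was 0.028 and was not called. From the first spots alone it was -0.32 and was called (limma adjusted p = 0.0428). Act87E read 0.26, 0.25, 0.45 and -0.25, fitted at 0.18 ± 0.11 (limma adjusted p = 0.157), and it turned to -0.037 without array 2a.

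With the gonads removed, Act88F was lower in female than in male carcass. It read 0.013, -0.23, -1.66 and -0.86 on arrays 3a, 3b, 4a and 4b, fitted at -0.69 ± 0.18 or 1.61-fold (limma adjusted p = 0.00646). The arrays with female carcass in channel 1 lay near 0 and the arrays with the channels swapped lay well below it, without overlap. Without array 4a the ratio was -0.38 and was not called (limma adjusted p = 0.262).

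Fitted on the 4 carcass arrays alone, the same ratio was not called (limma adjusted p = 0.161). Act79B read 0.59, -0.11, -0.72 and -0.52, fitted at -0.19 ± 0.13 (limma adjusted p = 0.292). Act87E read 0.51, 0.084, -0.34 and -0.46, fitted at -0.049 ± 0.11 (limma adjusted p = 0.781). The count of 1 actin called lower stood against 8.64% of elements called lower.

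In tudor flies, female over male, 0 of 3 actins were called and none had an unadjusted p under 0.05, against 1.21% of elements called. Act88F read -0.17 and -0.44, fitted at -0.17 ± 0.26 (limma adjusted p = 0.9997). Scaled to the same spread it was -0.66 and was called (limma adjusted p = 0.0292). Act79B read -0.15 and -0.285 and Act87E read -0.08 and -0.105. Their fitted ratios were 0.15 ± 0.18 and 0.25 ± 0.16, opposite in sign to both arrays, because both arrays held the female RNA in channel 2 and the fit subtracts the dye term. With no dye term they were -0.22 and -0.09, so no direction is given for either.

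Between the gonads, ovary over testis, Act88F was above 0 on all 4 arrays, at 0.28, 0.37, 0.36 and 0.53. The fitted ratio of 0.39 ± 0.18 missed the threshold (limma adjusted p = 0.0563). It passed on the 4 arrays alone (adjusted p = 0.0193), from the first spots alone, at 0.42 (adjusted p = 0.0429), and without arrays 7b and 8b (adjusted p = 0.0496). It did not pass from the second spots, at 0.35 (adjusted p = 0.097), with no dye term (adjusted p = 0.0753), or with any 1 array left out, where it was lowest at 0.28 without 6b (adjusted p = 0.247). With the arrays scaled to the same spread it was 0.21 (adjusted p = 0.3003). Act79B read 0.88, 0.34, -0.52 and -0.054, fitted at 0.16 ± 0.13 (limma adjusted p = 0.265). Act87E read 0.26, 0.45, -0.65 and -0.32, fitted at -0.063 ± 0.11 (limma adjusted p = 0.617). No actin was called and 1 of 3 had an unadjusted p under 0.05, against 66.7% of elements called either way.

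The female over male effect was compared between whole flies, carcasses and tudor flies. For Act88F, the whole-fly effect was 0.45 ± 0.25 above the carcass effect (limma adjusted p = 0.159). The carcass effect minus the tudor effect was -0.51 ± 0.32 (limma adjusted p = 0.484). Of the 9 such differences for the 3 actins, 0 were called by limma and 0 had an unadjusted p under 0.05. Over all elements, 37.8% were called for whole flies against carcasses, 27.8% for whole flies against tudor flies and 0.256% for carcasses against tudor flies.

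Several ratios could be reached along separate arrays. Ovary over testis for Act88F was 0.39 directly, 0.27 through tudor males and 0.47 through tudor females, with differences of 0.12 ± 0.40 and -0.087 ± 0.40 (limma adjusted p = 0.923 and 0.937). These differences were smaller than their errors, and 2.37% and 4.96% of elements were called for them.

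The sex ratios joined less closely for Act88F. Whole female over male was -0.24 directly and -0.90 through the tudor flies, a difference of 0.67 ± 0.49 (limma adjusted p = 0.921), and 0% of 9509 elements were called for it. Female over male carcass was -0.69 directly and 0.15 through the gonads, a difference of -0.84 ± 0.41 with an unadjusted p of 0.0476 and a limma adjusted p of 0.997, again with 0% of elements called. The direct and the indirect carcass ratios of Act88F therefore had opposite signs. Signs were opposite as well for Act79B in whole flies, at -0.14 directly and 0.20 through tudor flies, and for Act87E in carcass, at -0.049 and 0.045. None of these differences was called.

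**Figure D3:**
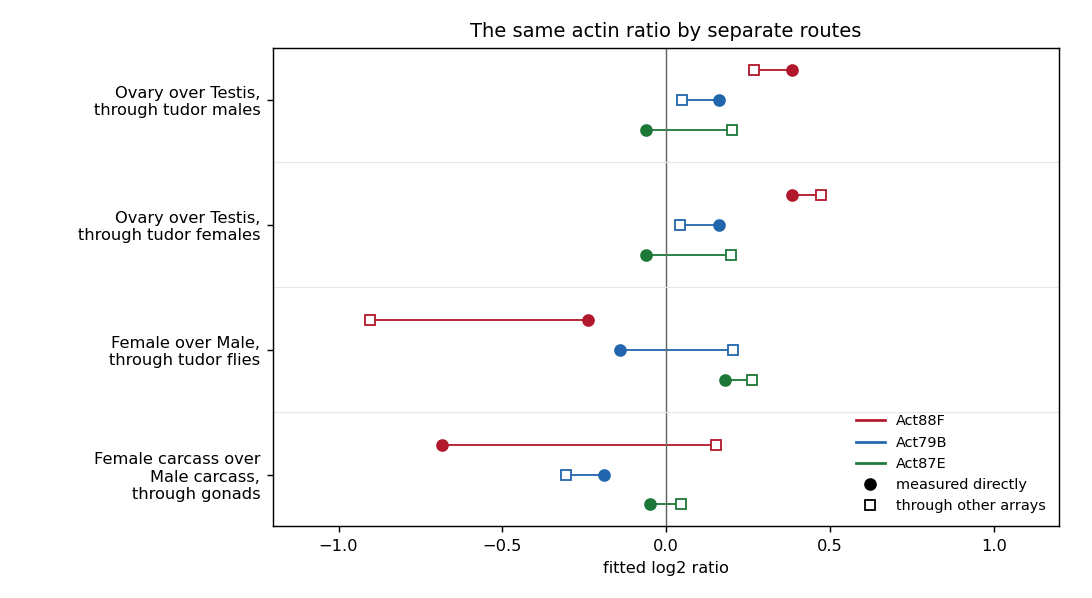
Fitted log2 ratios of each actin measured directly (filled circles) and summed through other arrays (open squares), joined by a line. The longest lines are those of Act88F for whole females over males and for female over male carcass; no difference passed an adjusted p of 0.05 in limma.

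Across comparisons the 3 actins moved together but by different amounts. In the 10 comparisons that set a different tissue or stock in each channel, which leaves aside the direct comparisons of sexes, of gonads and of siblings, the size of the ratio ran Act88F, then Act79B, then Act87E on 24 of 26 arrays. Over all 44 arrays that order held on 32. Over the 15 fitted ratios, which share RNA pools and arrays' dyes, Act79B followed Act88F with a slope of 0.53 (r = 0.96) and Act87E with a slope of 0.29 (r = 0.89). The fitted ratios ranged from -2.66 to 1.71 for Act88F, from -1.70 to 0.61 for Act79B and from -1.09 to 0.42 for Act87E.

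The gap between the actins can be read within an array. Act88F minus Act79B averaged -1.19 ± 0.64 (SD, n = 4 arrays) in ovary over female carcass, and 0 of 4 arrays were above 0. It averaged -0.96 ± 0.77 (n = 2) in testis over male carcass and 0.98 ± 0.08 (n = 2) in tudor male over testis. In male over tudor male it was 0.028 ± 0.025 (n = 2), so there the flight muscle actin and the tubular muscle actin had nearly equal ratios. In female over tudor female it was -0.755 ± 0.24 (n = 2). These within-array gaps take no account of dye. Both arrays of tudor male over testis held the tudor RNA in channel 1. That gap therefore also carries the difference between the dye coefficients of Act88F (0.13) and Act79B (0.37). With the dye term, the fitted ratios there were 1.71 and 0.49. Apart from male over tudor male, the gaps given here show unequal ratios of the spots. They do not show that any actin was unchanged.

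The dye effect itself differed between the actins. Channel 1 read above channel 2 by 0.37 for Act79B and by 0.34 for Act87E as coefficients shared by all arrays (limma adjusted p = 2.55e-08 and 5.09e-09). For Act88F the coefficient was 0.13 (limma adjusted p = 0.104). The mixed-sex arrays, on which both channels held the same RNA, read 0.22 and 0.31 for Act79B, 0.15 and 0.30 for Act87E, and 0.033 and 0.24 for Act88F. All 6 of these values were above 0. Duplicate spots differed by a median of 0.12 for Act88F, 0.13 for Act79B and 0.10 for Act87E over 46 arrays.

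The other genes of the sarcomere, the contractile unit of muscle, were set beside the actins. Of 30 listed genes, 18 had an element, among them the myosin light chains Mlc1 and Mlc2, the flightin gene fln, which stabilises flight muscle thick filaments, and the troponin T gene up. In ovary over female carcass, 17 of 18 were called lower (26.6% of all elements), with a median of -2.51 against -0.019 over all elements. The called genes with the largest ratios were fln (-3.62 ± 0.28), Mlc2 (-3.49 ± 0.30), TpnC4 (-3.32 ± 0.29), a troponin C, and Tm2 (-3.25 ± 0.33), a tropomyosin. In testis over male carcass 16 of 18 were lower (26.9% of all elements), with a median of -2.36, and Mlc1 read -3.27 ± 0.26. Act88F lay close to both medians and the other actins lay above them. In ovary over female carcass, however, fln, Mlc2, TpnC4 and Tm2 were measured on 2 arrays and Act88F on 4. The ovary median thus mixes genes with 2 and with 4 arrays. Without arrays 7b and 8b, the Act88F ratio there was -2.05.

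The same genes were higher in tudor flies than in gonads. Of 18, 15 were called higher in tudor male over testis (median 1.46), 16 in tudor male over ovary (median 1.29), 15 in tudor female over testis (median 1.24) and 13 in tudor female over ovary (median 1.13). Of all elements, 15.4%, 16.1%, 17.8% and 12.7% were called higher there. TpnC4 was the highest in each, between 2.71 and 2.99. The sole sarcomere gene called lower was Zasp67, at -0.57, in tudor male over ovary. The shares of elements called lower in these 4 comparisons were 16.5%, 14.3%, 19.4% and 11.9%. In females over XX tra2, 17 of 18 were lower (28.4% of all elements, median -1.54). In males over XX dsx 13 were lower (11.6%, median -1.04), and in females over tudor females 15 were lower (14.9%, median -1.11).

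In several comparisons the calls of the actins and of this list differed. In whole females over males, 14 of 18 sarcomere genes were called lower (27.8% of all elements) and 1 higher (28.9%), with a median of -0.69, while 0 of 3 actins were called. The giant sarcomere protein gene sls read -1.13 ± 0.16 and the troponin C gene TpnC41C -1.13 ± 0.15. In female over male carcass only tn, at -0.39 ± 0.11, was called among the 18 (8.64% of all elements called lower). The list median there was -0.14, and 4 of 18 had an unadjusted limma p under 0.05. Act88F was called there at -0.69. In male over tudor male only Mlc2, at -1.0025 ± 0.30, was called (1.37% of all elements called lower). The list median there was -0.26, and 4 of 18 again had an unadjusted limma p under 0.05. Act88F and Act79B were called there at -0.91 and -0.94.

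In ovary over testis no actin was called and Act88F was fitted at 0.39, while 4 of 14 tested sarcomere genes were called lower (31.8% of all elements) and 1 higher (34.9%), with a median of -0.22. The lowest was sls at -1.61 ± 0.16, and the gene called higher was Actn, which encodes alpha-actinin, at 0.97 ± 0.14. In XX tra2 over XY tra2, Act79B was called higher at 0.35, a call lost with any 1 array left out. There 0 of 18 sarcomere genes were called by limma (5.18% of all elements higher, 15.3% lower) and 0 had an unadjusted p under 0.05. The list ran from -0.13 to 0.41 with a median of 0.16, so the Act79B ratio lay within its range. In tudor female over tudor male neither an actin nor a sarcomere gene was called, where 1.21% of all elements were called either way. There 1 of 18 sarcomere genes had an unadjusted p under 0.05. The difference between the actins and the list was not tested.

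The 4 muscle markers on the array, Mlc2, fln, up and Tm2, are also members of the sarcomere list, so their values are not separate from it. All 4 were called lower in whole females over males, with ratios from -0.79 to -0.39, where 27.8% of all elements were called lower. In female over male carcass none was called by limma and 0 had an unadjusted p under 0.05, with ratios from -0.22 to 0.0069. Of all elements, 9.97% were called higher and 8.64% lower there. In male over tudor male 1 of 4 was called lower (1.37% of all elements), with a median of -0.48. Their part in the actin ratios was not tested.

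**Figure D4:**
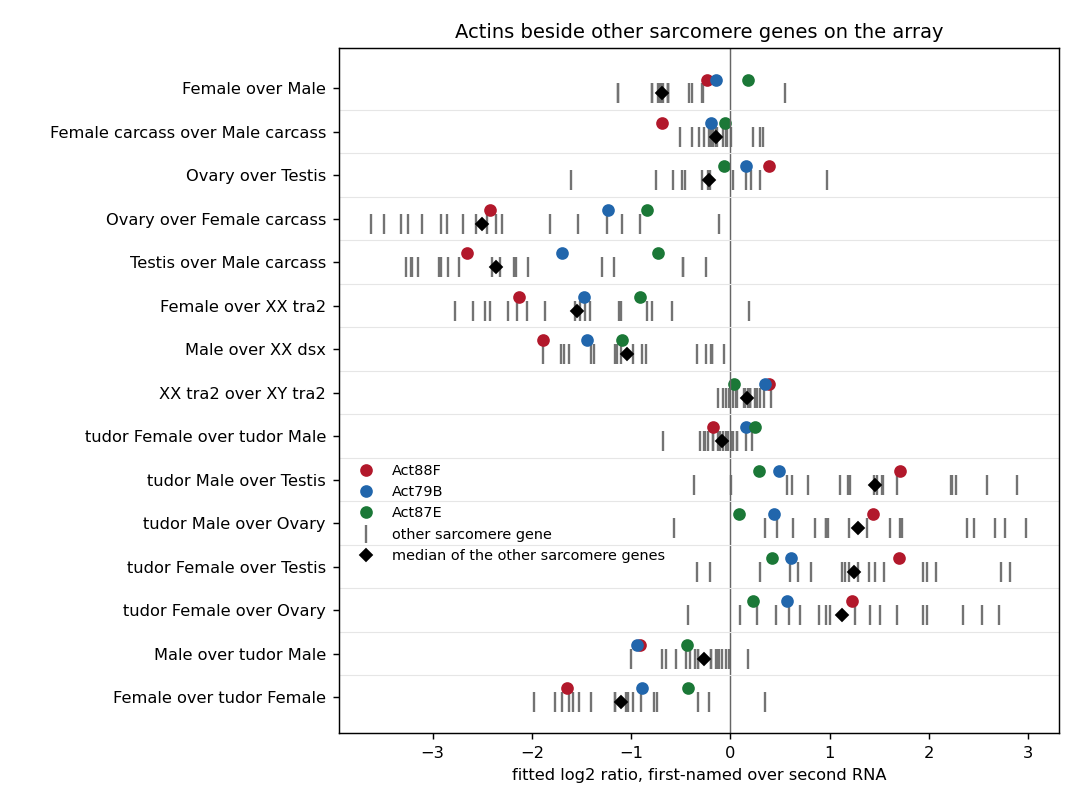
Fitted log2 ratios of the 3 actins (coloured points) above those of up to 18 other sarcomere genes (grey ticks, with a black diamond at their median) in each comparison. Act88F lies near or beyond the median in the gonad comparisons, and all 3 actins lie right of it in Female over Male.

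Proteins that bind and remodel actin filaments, most of them shared by all cells, were called in both directions. Of 36 listed genes, 25 had an element. In ovary over female carcass, where the muscle actins were lower, 10 of 25 were called higher (22.5% of all elements) and 4 lower (26.6%). The median was 0.18. Gel, which encodes the filament-severing protein gelsolin, fell by 1.79 ± 0.15, and alpha-Spec, the spectrin of the membrane skeleton, fell by 1.46 ± 0.14. The fascin gene sn, which bundles filaments in nurse cells and bristles, rose by 1.31 ± 0.23, and flr, an actin-interacting protein that aids filament disassembly, rose by 0.85 ± 0.16.

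In testis over male carcass 4 of 24 tested regulators were higher (26% of all elements) and 9 lower (26.9%). The villin-like gene qua read 2.09 ± 0.20 and the formin gene capu 1.68 ± 0.19, while Gel read -1.23 ± 0.22. Between the gonads, ovary over testis, 15 of 25 were higher (34.9% of all elements) and 7 lower (31.8%). There capu read -1.92 ± 0.13, flr 1.53 ± 0.11, the cofilin gene tsr 1.51 ± 0.10 and sn 1.34 ± 0.16, while none of the actins was called.

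In whole females over males, where no muscle actin was called, 13 of 25 regulators were called higher and 5 lower. Of all elements, 28.9% were called higher and 27.8% lower there. The genes flr (1.12 ± 0.13) and tsr (1.02 ± 0.10) were higher in females, and capu (-0.97 ± 0.13) and alpha-Spec (-0.91 ± 0.11) were lower. In female over male carcass 5 of 24 were higher (9.97% of all elements) and 0 lower (8.64%). The largest were tsr at 0.48 ± 0.10 and flr at 0.46 ± 0.11. Against tudor flies, 8 of 23 were higher (15.5% of all elements) and 2 lower (14.9%) in females. There Gel read -1.33 ± 0.22 and tsr 0.88 ± 0.15. In males 2 of 25 were higher (5.95% of all elements), qua (0.635 ± 0.20) and capu (0.63 ± 0.19), and 0 were lower (1.37%). Gel was thus lower together with the 3 actins in ovary, testis and y w females, each against carcass or tudor flies.

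In the remaining comparisons the regulators were called in both directions or not at all. Females over XX tra2 had 15 of 25 higher (28.1% of all elements) and 4 lower (28.4%), with Gel at -1.25 ± 0.15. Males over XX dsx had 4 of 24 higher (15.1%) and 2 lower (11.6%). XX tra2 over XY tra2 had 4 of 23 higher (5.18%) and 3 lower (15.3%). Over testis, 3 of 22 were higher (15.4%) and 3 lower (16.5%) in tudor males, and 4 of 22 higher (17.8%) and 3 lower (19.4%) in tudor females. Over ovary, 2 of 24 were higher (16.1%) and 10 lower (14.3%) in tudor males, and 2 of 23 higher (12.7%) and 8 lower (11.9%) in tudor females. In tudor female over tudor male 0 of 22 were called by limma and 3 had an unadjusted p under 0.05, where 0.321% of elements were called higher and 0.886% lower.

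The genes whose 15 fitted ratios were most like those of Act88F were ranked among 5842 genes measured in all 15 comparisons. They were CG7214 (r = 0.985), CAH7 (r = 0.984), a carbonic anhydrase gene, up (r = 0.980), CG5707 (r = 0.979) and CG13048 (r = 0.978). The standard deviation of the 15 ratios was 1.52 for Act88F, 2.33 for CG7214 and 1.16 for up. Of the sarcomere genes, Mlc1 ranked 6 and fln ranked 7, while sls had an r of 0.69 and Zasp67 an r of -0.37. The points share RNA pools and dyes, and the correlations describe these 15 ratios only.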

How the data were processed

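Total RNA was poly(A)-selected, labelled with Cy3 (channel 1) or Cy5 (channel 2) and hybridised to spotted 2-colour arrays, per the labels. The deposited values are log2 ratios, taken as channel 1 over channel 2; the log base, the numerator and the authors' normalization are not stated in the labels or headers. Marker genes follow the direction taken. Signal over background was not available, so dim spots could not be separated. Gene symbols came from the platform annotation, in which 12587 elements have 1 gene, and chromosome arms from RefSeq.

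Values were averaged over duplicate spots (15732 elements), centred on each array's median (-0.034 to 0.066 as deposited) and turned by the titles. First-half values of arrays 7b and 8b (9626) were left out. limma 3.58.1 in R 4.3.3 fitted 1 coefficient per comparison and a dye coefficient over 46 arrays. The number that ends each title, shared by arrays such as 7a and 7b, was a random block (correlation -0.088). Elements with at least 2 arrays in a comparison were tested. Leaving out 1 array of a 2-array comparison kept the remaining array in the fit, with spread pooled over the other comparisons. The script was tested on simulated data. No actin result used a pseudocount.

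The members and gene lists (sarcomere, actin regulators, and markers of testis, ovary, yolk, accessory gland, muscle and photoreceptor) were chosen with earlier results of these data known. The contrasts of gonad over carcass and of y w over tudor between the sexes, and the routes through tudor flies or gonads to the sex ratios, were added after the data were seen. Yolk genes (Yp1, Yp2, Yp3) had a median of 3.51 in female over male, and the 3 accessory gland genes on the array a median of -2.68. The 3 photoreceptor genes had a median of -0.66 there. Named genes were all actins, up to 4 called list members with the largest ratios per comparison, markers, the 5 genes most like Act88F, and list members with a stated call. Other list members (up, sls, Mlc1, fln, Zasp67) were named after their values were seen.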

Additional observations from a re-analysis of the deposited data

How the results depend on the processing

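With 14 kinds of alternative and the leaving out of each array, no called actin ratio changed sign. Of the 27 actin calls, 14 were kept when at least a 2-fold ratio was also asked. For Act88F, the carcass ratio of -0.69 lost its call at 2-fold and on its own arrays (-0.69 in both), and ran from -0.90 to -0.38 with 1 array left out. Male over tudor male (-0.91) lost its call at an adjusted p of 0.01 and at 2-fold (-0.91 in both), and ran from -1.01 to -0.81. Female over male ran from -0.52 to -0.021 and passed without array 2a. Ovary over testis passed at 0.39 without arrays 7b and 8b and on its own arrays, and at 0.42 from first spots. With scaled arrays, XX tra2 over XY tra2 passed at 0.40 and tudor female over tudor male at -0.66. Act79B passed in female over male from first spots (-0.32) and in tudor male over ovary with scaling (0.50). Act87E passed in tudor male over testis on its own arrays (0.63) and in male over tudor male with scaling (-0.78). The cause was not tested for any of these.

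Among ratios that were not called, the sign turned for Act79B in female over male from second spots (0.028), and in tudor female over tudor male with scaling (-0.24) and with no dye term or own arrays (-0.22 in both). It turned for Act87E in tudor female over tudor male with no dye term or own arrays (-0.092 in both). With 1 array left out, Act87E ran from -0.037 to 0.28 in female over male, from -0.12 to 0.018 in carcass, from -0.12 to 0.022 in ovary over testis, from -0.051 to 0.15 in XX tra2 over XY tra2 and from -0.18 to 0.37 in tudor male over ovary.

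Over all elements, 63683 calls over the 15 comparisons became 48030 at an adjusted p of 0.01, 14642 at 2-fold, 52055 with arrays 7b and 8b as deposited, 51410 among elements measured on every array of a comparison and 60440 after scaling. Own arrays gave 35537 calls over 12 comparisons, since testis over male carcass and both y w over tudor comparisons left no residual degrees of freedom. The alternatives on cytoplasmic actins were not run, because no element carries their symbols. No paired analysis was possible because array numbers are not shared between comparisons. A ratio within 2 arrays and 1 orientation rests on the dye term, and depth or signal over background was not available.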
